A study of Mus musculus with 12 samples.

Results

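Interferon response genes are the genes that a cell switches on when interferons bind their receptors. The 42 genes described here were taken from a list of type I and type II interferon response genes, by matching the Ensembl identifiers of a table of 48795 genes to mouse gene symbols. All 42 were found, and all 42 passed the filter on low values that left 14856 genes to be tested. Their levels were measured by RNA-seq of total RNA in 12 libraries of colonic organoids, which are epithelial structures grown in a gel matrix from the crypts of the mouse colon. The libraries form 4 groups of 3. KO differentiated organoids came from AhR-deficient C57BL/6 mice and were kept for 3 days without Wnt-3A (ENR medium), and WT differentiated organoids were their wild-type counterparts. KO stem and WT stem organoids were the same genotypes kept in WENR medium, which holds Wnt-3A besides EGF, Noggin and R-spondin-1, and this is called the stem cell condition. AhR is the aryl hydrocarbon receptor, a ligand-activated transcription factor that senses compounds from the diet, microbes and pollutants. The labels give no age or sex, do not name the AhR allele, and do not say whether replicates are separate mice, separate cultures or repeats of one, so p-values here measure the spread between these libraries, which may be technical. The question was whether the effect of the KO on interferon response genes is the same in both culture conditions.

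Type I and type III interferons act through receptors on epithelial cells and lead to a complex with STAT2 and IRF9, which binds a promoter element called the interferon-stimulated response element (ISRE). Type II interferon has its own receptor and acts on a promoter element called the gamma-activated sequence (GAS). The proteins made from these genes sense viral RNA, block its translation, degrade it, tag proteins with ubiquitin-like modifiers or attack the membranes around intracellular microbes, and many are present at a low level in epithelium with no infection. Interferon signalling is known in the gut mainly for defence against enteric viruses.

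The promoters of the genes show which of these elements they carry. Sequences were taken from RefSeq (GRCm38.p6), as the 250 bases before each annotated start, and 34 of the 42 genes were matched. The ISRE was searched as TTTC, then any 2 bases, then TTTC (on the other strand GAAA, any 2 bases, GAAA), and matches may overlap one another. It was found in 15 of the 34 genes (44.1%), against 3.46% of all 27025 genes with a promoter of that length. The GAS element, TTCNNNGAA, which reads the same on both strands, was found in 8 of the 34 (23.5%), against 8.13% of all genes. The core of the element bound by AhR, GCGTG or CACGC, was found in 11 of the 34 (32.4%), against 30.9% of all genes. The stretches printed here belong to genes whose KO effect differed between the conditions (the first 7), to Irf1, and to 2 genes with an ISRE whose KO effects were not shown to differ. Capitals mark ISRE matches, and in Igtp and Irgm2 also the GAS match before it; in Irf1 they mark the GAS match. Bst2 also holds a GAS match, left in lower case but for its end, which runs into the first ISRE match. All are written 5′ to 3′ on the strand of the gene.
Ifit1: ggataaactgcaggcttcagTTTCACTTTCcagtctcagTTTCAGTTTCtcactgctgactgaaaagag
Ifit3: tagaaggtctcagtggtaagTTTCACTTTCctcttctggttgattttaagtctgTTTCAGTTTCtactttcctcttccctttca
Ddx60: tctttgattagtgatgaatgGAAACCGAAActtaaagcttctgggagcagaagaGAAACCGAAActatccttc
Isg15: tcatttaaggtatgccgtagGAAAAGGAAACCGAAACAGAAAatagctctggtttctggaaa
Oas3: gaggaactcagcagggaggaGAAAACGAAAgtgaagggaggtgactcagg
Igtp: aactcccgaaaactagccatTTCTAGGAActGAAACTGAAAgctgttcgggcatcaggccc
Irgm2: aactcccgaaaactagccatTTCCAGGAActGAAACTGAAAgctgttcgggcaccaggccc
Irf1: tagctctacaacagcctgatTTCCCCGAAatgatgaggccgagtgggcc
Gbp3: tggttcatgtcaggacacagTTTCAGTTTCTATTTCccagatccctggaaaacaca
Bst2: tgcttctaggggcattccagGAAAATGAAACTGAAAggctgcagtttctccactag

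The stretches lie at chr19:34640765-34640833, plus strand (Ifit1), chr19:34583353-34583436, plus strand (Ifit3), chr8:61928014-61928086, plus strand (Ddx60), chr4:156200855-156200916, minus strand (Isg15), chr5:120777705-120777754, minus strand (Oas3), chr11:58199491-58199551, plus strand (Igtp), chr11:58214882-58214942, plus strand (Irgm2), chr11:53769904-53769952, plus strand (Irf1), chr3:142559979-142560034, plus strand (Gbp3) and chr8:71537567-71537622, minus strand (Bst2). All of them are upstream of the RefSeq start used for the search. In the GENCODE vM21 annotation Irgm2 starts at 58199618, so its stretch lies inside that gene. Gbp3 starts there at 142560026, within the end of its stretch. The Igtp and Irgm2 stretches shared 59 of 61 bases, so their elements are not independent examples. In Isg15, Gbp3 and Bst2 the capitals are overlapping matches, and in Ifit1, Ifit3 and Ddx60 they are separate ones. A match is a description of the letters and not a measured binding site. Among the matched genes, 11 of 15 with an ISRE and 10 of 19 without one had a KO effect that differed between conditions.

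Before the comparisons, the libraries themselves need a description. Depth was 51.8 to 99.0 M reads assigned to genes in KO stem, 33.1 to 49.4 M in WT stem, 50.2 to 78.1 M in KO differentiated and 25.1 to 75.7 M in WT differentiated libraries. The whole-gene count of Ahr was higher in the KO stem libraries, at 2503, 2831 and 2690.3, against 1762, 1746 and 1909 in the WT stem libraries. Single exons of Ahr were not examined, so this count is no check of the KO. Cyp1b1, a direct AhR target, was low in KO stem libraries, at 571, 408 and 269, against 8502, 7479 and 8452 in the WT stem libraries. Of 7 AhR target genes listed, 5 were tested. In KO stem libraries 3 of them were called lower and none higher, where 3.09% of all genes were lower. In KO differentiated libraries 3 were called lower and 1 higher, where 13.9% of all genes were lower and 13.8% higher. WT stem library 1 stood apart: its 10 fibroblast markers summed to a normalized count of 22036, against 71.6 to 113 in the other WT stem libraries, and KO stem library 3 had 638, against 51.4 and 78.1 in the other KO stem libraries. Sums in the differentiated libraries were 87.7 to 104 in KO and 115 to 168 in WT. Of 10 immune markers, 5 passed 3 reads in some library; Cd3e, Cd3g and Tyrobp were at 0 in all 12 libraries and Ptprc reached at most 5.97. Cd68 made up most of the immune sum, which was 4444 to 4596 in KO stem, 1707 to 3380 in WT stem, 1093 to 1702 in KO differentiated and 954 to 1182 in WT differentiated libraries. All 8 epithelial markers were detected and tested. In KO differentiated organoids 5 of them (Epcam, Krt8, Krt20, Vil1 and Cdx2) fell, where 13.9% of all genes fell. In KO stem organoids 2 (Epcam and Krt20) fell, where 3.09% of all genes fell. No interaction was called for any of them, where 3.58% of all genes were called negative and 5.12% positive.

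The KO effect on the interferon response genes differed between the 2 conditions. In differentiated organoids 27 of the 42 genes were lower in KO than in WT at an adjusted p under 0.05, none was higher, and the median change was log2 -0.45. In the stem cell condition 7 of the 42 were higher in KO, none was lower, and the median change was log2 0.28. Among all tested genes, 13.9% were lower and 13.8% higher in KO differentiated libraries (median log2 0.02), and 3.48% were higher and 3.09% lower in KO stem libraries (median log2 -0.04). The test was limma on log2(normalized count + 1), with Benjamini-Hochberg adjustment over the 14856 genes. A lower count in such bulk libraries cannot tell fewer cells of a type from less RNA per cell.

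**Figure D1:**
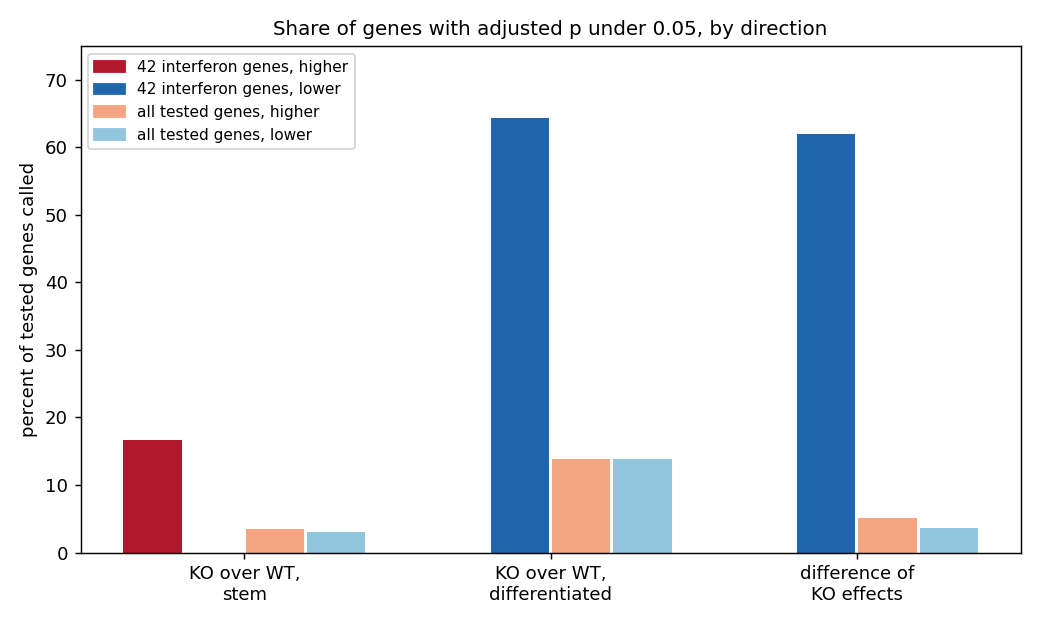
Share of genes with an adjusted p under 0.05, in percent of the genes tested, for the KO effect in stem, in differentiated organoids and for the difference of both effects. Dark bars are the 42 interferon response genes and pale bars all 14856 tested genes, split into higher and lower, and a missing dark bar is a share of 0. For the 42 genes the only calls are higher in KO stem, lower in KO differentiated organoids, and negative for the difference.

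The difference of the KO effects (differentiated minus stem) was tested directly, as the interaction of genotype and condition. It was called for 26 of the 42 genes, all negative, where 3.58% of all tested genes were called negative and 5.12% positive. Its median over the 42 was log2 -0.79, against 0.04 over all genes. Ifitm3 alone had a positive value (log2 0.66), which was not called. By both single effects, Gbp7 and Irgm2 were called higher in KO stem and lower in KO differentiated organoids, 5 genes were called only as higher in KO stem, 25 only as lower in KO differentiated organoids, and 10 in neither. Shares of all genes with these joint patterns are not given here, so the counts only describe the 42 genes. The groups did not overlap for 19 genes in the stem cell condition, all higher in KO (11.6% of all genes were higher and 17.9% lower in this way), and for 33 in the differentiated condition, of which 32 were lower in KO (26.4% of all genes) and Bst2 was higher (26.8% of all genes).

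**Figure D2:**
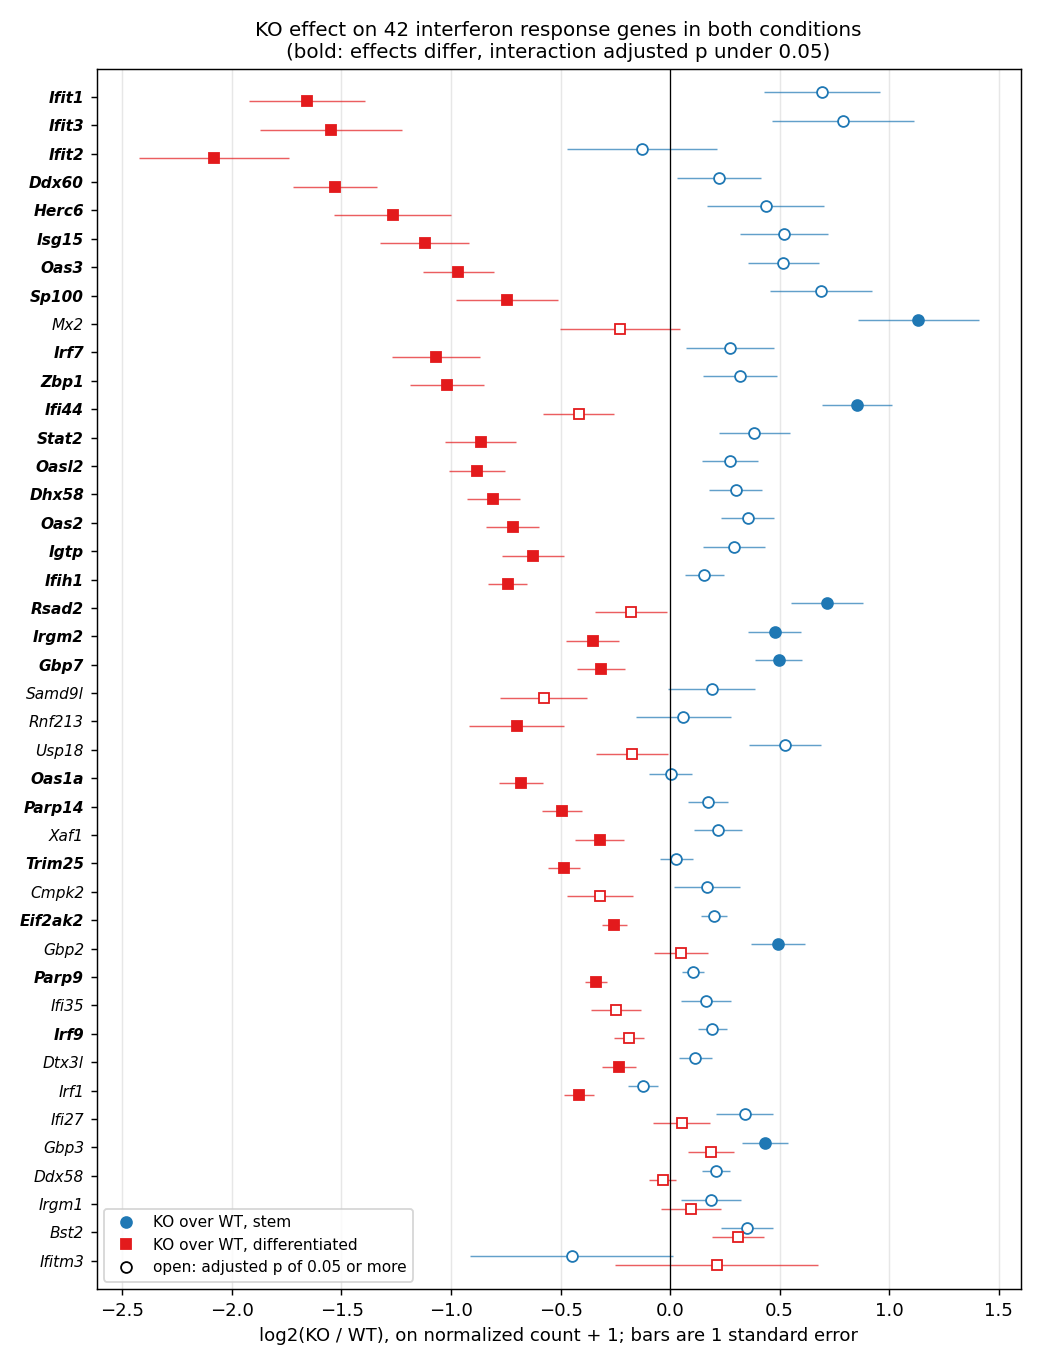
KO effect on the 42 interferon response genes as log2(KO / WT) of the normalized count + 1, in stem (circles) and differentiated organoids (squares), with 1 standard error. Filled symbols have an adjusted p under 0.05, and names in bold mark the 26 genes whose effects differed; genes are ordered by that difference, from Ifit1 (log2 -2.35) at the top to Ifitm3 (log2 0.66) at the bottom.

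How firmly these counts stand differed between the conditions. In the differentiated condition 21 of the 27 calls held whichever library was left out, and for the interaction 16 of 26 did. The 10 interactions that did not (Irf7, Irf9, Trim25, Ifit2, Oas1a, Herc6, Rsad2, Sp100, Igtp and Irgm2) were all lost without WT differentiated library 3, the shallowest library, and all but Trim25 and Irgm2 were also lost without KO stem library 1. None of the 7 stem calls did: without KO stem library 1 no gene was called (363 of all 14856 genes were), without KO stem library 2 or WT stem library 2 only 1 was, and with only the stem libraries in the fit none was, although 21 of the 42 had an unadjusted p under 0.05 in the fit of all 12 libraries. With edgeR on the recovered reads 9 were called and with DESeq2 13. Without WT stem library 1, the library with fibroblast transcripts, 7 genes were again called, 5 of them the same, and without it and KO stem library 3 together 14 were, 7 of them the same. Shares of all genes called with edgeR, with DESeq2 or without these libraries are not given here. A higher count under them need not be particular to the 42 genes. The immune sums given above, mostly Cd68, were higher in KO stem libraries (Cd68 itself was not called, adjusted p = 0.114), and their part in the stem comparison was not tested.

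Libraries of a group also differed among themselves. In KO stem, library 3 was the lowest of the group for 39 of the 42 genes and library 1 the highest for 29. In KO differentiated, library 1 was the lowest for 34. WT differentiated libraries were the most alike, with a median coefficient of variation of 3.95% over the 42 genes, against 14.8% in KO differentiated, 13.4% in KO stem and 11.7% in WT stem libraries. Krt20, a keratin of mature surface colonocytes, was also lowest in KO differentiated library 1, with 3248, 9106 and 8947 in the KO differentiated libraries, against 30197, 22425 and 28678 in the WT differentiated libraries (log2 -2.07, adjusted p = 0.00684). It was also lower in KO in the stem cell condition, at a far lower level, with 33.4, 59.4 and 61.1 in the KO stem libraries, against 126, 237 and 366 in the WT stem libraries (log2 -2.14, adjusted p = 0.0166). Vil1, the microvillus protein villin, had 47147, 52608 and 53118 in the KO differentiated libraries, against 73097, 67017 and 68248 in the WT differentiated libraries (log2 -0.45, adjusted p = 0.00337), and was not called in stem organoids (log2 -0.08, adjusted p = 0.578). The part of these maturation markers in the interferon gene result was not tested.

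**Figure D3:**
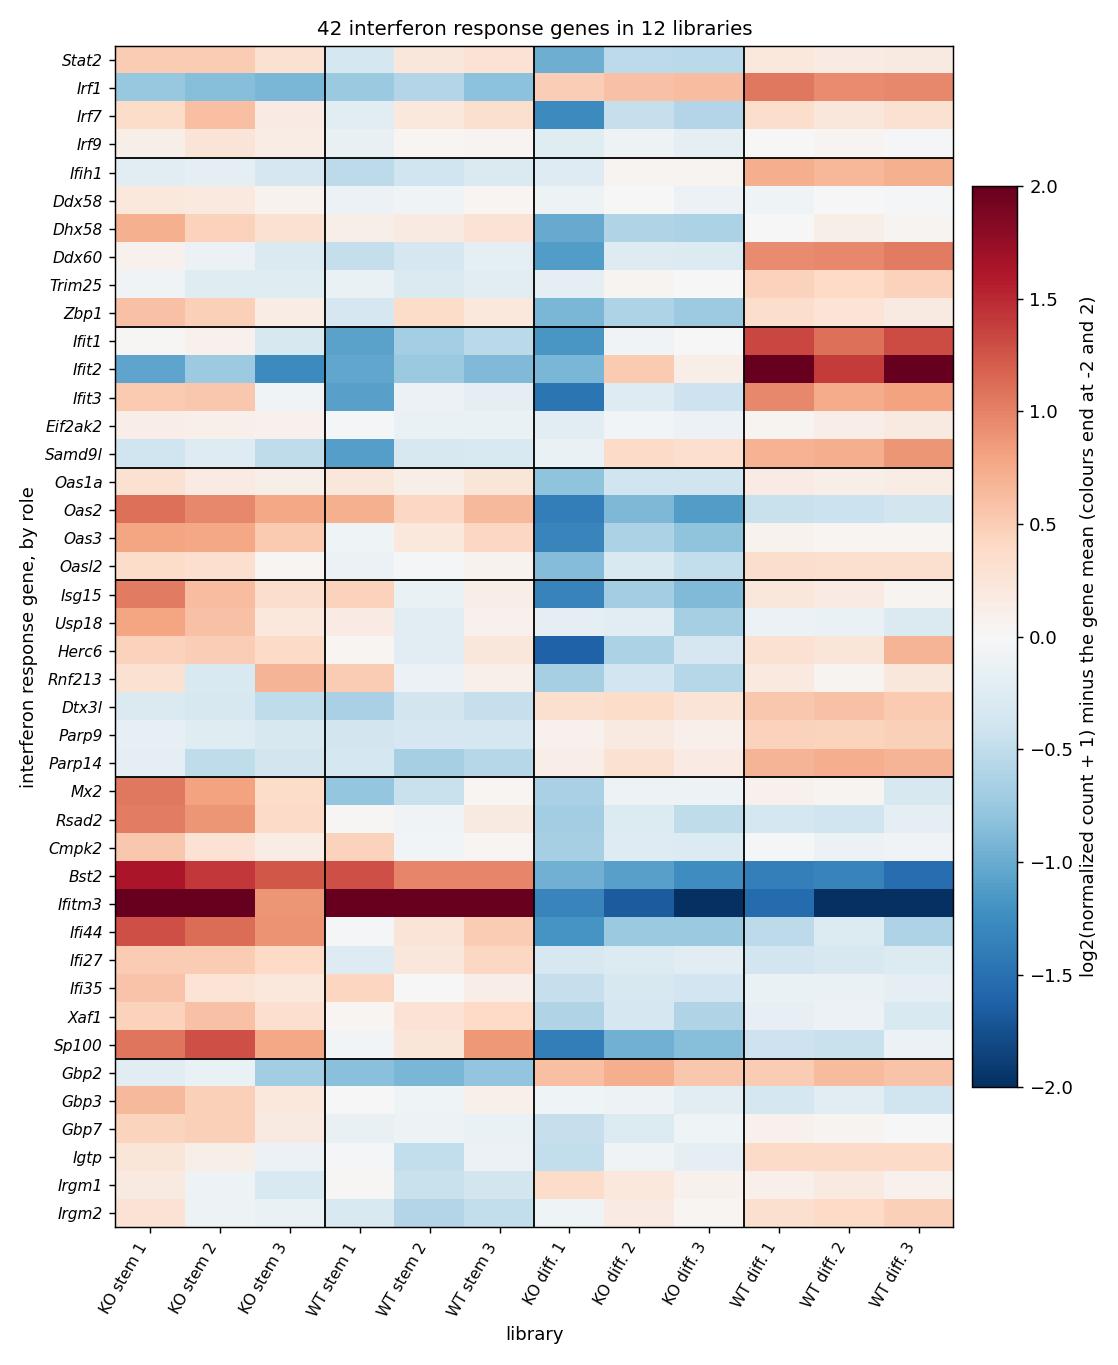
Level of each of the 42 interferon response genes (rows, grouped by role between the horizontal lines) in each of the 12 libraries (columns), as log2(normalized count + 1) minus the mean of the gene, with colours ending at -2 and 2. KO differentiated library 1 is the bluest column for genes such as Ddx60, Ifit3, Isg15 and Herc6, WT differentiated libraries are reddest for Ifit1 and Ifit2, and Irf1 and Gbp2 are red in both differentiated groups.

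Of 4 transcription factors that carry the interferon signal, Stat2, Irf7 and Irf1 fell in KO differentiated organoids, where 13.9% of all genes fell. Stat2, a subunit of the complex that binds the ISRE, had a normalized count of 1918, 2639 and 2598 in the KO differentiated libraries, against 4377, 4223 and 4299.7 in the WT differentiated libraries. Its stem libraries had 5372, 5362 and 4695 in the KO stem libraries, against 2949, 4447 and 4628 in the WT stem libraries. Every KO differentiated library lay below every other library, and the KO effect was log2 -0.86 ± 0.16 (SE), adjusted p = 0.00393 in differentiated and log2 0.39 ± 0.16 (SE), adjusted p = 0.173 in stem organoids. Irf7, which amplifies the production of type I interferon, had 4687, 8241 and 7592 in the KO differentiated libraries, against 14519, 13258 and 14014 in the WT differentiated libraries (log2 -1.07 ± 0.20 (SE), adjusted p = 0.004). Its levels averaged 14932 ± 2326 in KO stem and 12413 ± 2324 in WT stem libraries (SD, n = 3 each) and these groups overlapped. The KO effects on Stat2 and Irf7 differed between the conditions by log2 -1.25 (adjusted p = 0.0142) and -1.34 (adjusted p = 0.0205). Without WT stem library 1, the stem effects were smaller, at log2 0.18 for Stat2 and 0.11 for Irf7. The differences were then log2 -1.04 (adjusted p = 0.00976) and -1.18 (adjusted p = 0.0264). Irf9, the DNA-binding partner of STAT2, differed by -0.38 (adjusted p = 0.0347), with neither single effect called (log2 -0.19 in differentiated and 0.19 in stem organoids).

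Irf1, a factor best known downstream of type II interferon and the gene shown above with a GAS match, behaved otherwise. It had 6940.2, 7391 and 7557 in the KO differentiated libraries, against 10168, 9438 and 9576 in the WT differentiated libraries, with no overlap (log2 -0.41 ± 0.069 (SE), adjusted p = 0.00231). Stem values were 2904, 2723 and 2618 in the KO stem libraries, against 2931, 3286 and 2791 in the WT stem libraries, which overlapped (log2 -0.12, adjusted p = 0.288). The 2 effects had the same sign and their difference was not called (log2 -0.29, adjusted p = 0.0843).

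Of 6 sensors of viral RNA and their regulators, 5 fell in KO differentiated organoids, where 13.9% of all genes fell. Ifih1 (MDA5), which senses long double-stranded RNA, had 3162, 3913 and 3915 in the KO differentiated libraries, against 6208, 5962 and 6128 in the WT differentiated libraries (log2 -0.74 ± 0.089 (SE), adjusted p = 5.06e-04), the smallest adjusted p of all 42 genes. It had 3234, 3301 and 2972 in the KO stem libraries, against 2602, 2854 and 3088 in the WT stem libraries, and these overlapped (log2 0.16 ± 0.089 (SE), adjusted p = 0.306). The WT differentiated libraries thus lay far above all the others. Ddx60, a helicase described as a helper of RNA sensing and the gene with 2 separate ISRE matches above, had 1543, 2792 and 2756 in the KO differentiated libraries, against 6443, 6498 and 6823 in the WT differentiated libraries (log2 -1.53 ± 0.19 (SE), adjusted p = 5.98e-04). Its stem values were 3537, 3084 and 2728 in the KO stem libraries, against 2399.9, 2638 and 2942 in the WT stem libraries, and were not separated (log2 0.23 ± 0.19 (SE), adjusted p = 0.497). KO differentiated library 1 was the lowest of all 12 for Ddx60, and the other 2 KO differentiated libraries were close to the stem libraries.

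Dhx58 (LGP2), which tunes the signal of the other sensors, had 903, 1206 and 1170.5 in the KO differentiated libraries, against 1836, 1968 and 1894 in the WT differentiated libraries (log2 -0.81 ± 0.12 (SE), adjusted p = 0.0014). In stem organoids it had 2997, 2505 and 2249.6 in the KO stem libraries, against 1974, 2069 and 2219 in the WT stem libraries, with no overlap but no call (log2 0.30 ± 0.12 (SE), adjusted p = 0.156). Trim25, a ubiquitin ligase of the RIG-I pathway, had 11625, 13819 and 13331 in the KO differentiated libraries, against 18257, 17503 and 18332 in the WT differentiated libraries (log2 -0.48 ± 0.075 (SE), adjusted p = 0.00174). Its stem means were 11659 ± 844 in KO stem and 11424 ± 621 in WT stem libraries (SD, n = 3 each), so WT differentiated organoids were the high group. Zbp1, which binds left-handed nucleic acid and can start necroptosis, had 693, 844 and 783 in the KO differentiated libraries, against 1654, 1565 and 1474 in the WT differentiated libraries (log2 -1.02 ± 0.17 (SE), adjusted p = 0.00225). It had 1959.7, 1813 and 1438 in the KO stem libraries, against 1030.4, 1686 and 1512 in the WT stem libraries, where WT stem library 1 was the lowest. The stem effect of Zbp1 was log2 0.32, and 0.11 without that library. For these 5 sensors the interaction was called, at log2 -1.75 for Ddx60 (adjusted p = 0.0098), -1.34 for Zbp1 (adjusted p = 0.0129), -1.11 for Dhx58 (adjusted p = 0.0098), -0.90 for Ifih1 (adjusted p = 0.0097) and -0.51 for Trim25 (adjusted p = 0.0194). Ddx58 (RIG-I), the sensor of short RNA with a free 5′ triphosphate, was not called in either condition, with 5053 ± 253 in KO differentiated and 5171 ± 185 in WT differentiated libraries (SD, n = 3 each; log2 -0.03, adjusted p = 0.722).

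The IFIT genes, whose proteins bind foreign RNA and block its translation, showed the largest differences. Ifit1 had 859, 1833 and 1949.7 in the KO differentiated libraries, against 4908, 4148 and 4758 in the WT differentiated libraries (log2 -1.66 ± 0.27 (SE), adjusted p = 0.00194). In the stem cell condition it had 1974, 2046 and 1541 in the KO stem libraries, against 916, 1212 and 1327 in the WT stem libraries, which was the opposite order and not called (log2 0.69 ± 0.27 (SE), adjusted p = 0.139). The 2 effects differed by log2 -2.35 ± 0.38 (SE, adjusted p = 0.0107). Ifit2 had 117, 322 and 243 in the KO differentiated libraries, against 1147, 585 and 1052 in the WT differentiated libraries (log2 -2.08 ± 0.34 (SE), adjusted p = 0.00221). It was low in every stem library, with 107, 134 and 91.6 in the KO stem libraries, against 108, 132 and 120.0 in the WT stem libraries. WT differentiated library 2 was the lowest of its group for Ifit2, but still above every KO library. Ifit3, which stabilizes IFIT1 on RNA, averaged 797 ± 310.1 in KO differentiated and 2200.4 ± 179 in WT differentiated libraries (SD, n = 3 each; log2 -1.55 ± 0.32 (SE), adjusted p = 0.00639), and its interaction was log2 -2.34 (adjusted p = 0.0165). Ifit1 and Ifit3 have close copies in the mouse genome (Ifit1bl1, Ifit1bl2 and Ifit3b), so reads may have been split between the copies.

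Eif2ak2 (PKR), a kinase that stops translation when it binds double-stranded RNA, moved less. It had 3506, 3962 and 3771 in the KO differentiated libraries, against 4262, 4486 and 4643 in the WT differentiated libraries (log2 -0.25 ± 0.058 (SE), adjusted p = 0.00961) and 4482, 4385 and 4329 in the KO stem libraries, against 4006, 3736 and 3748 in the WT stem libraries (log2 0.20 ± 0.058 (SE), adjusted p = 0.0648). The groups did not overlap in either condition, and the 2 effects differed by log2 -0.45 (adjusted p = 0.0138). Samd9l, an inhibitor of translation that restricts poxviruses, had 9222, 13262 and 12770 in the KO differentiated libraries, against 16419, 16852 and 18707 in the WT differentiated libraries, without overlap but just short of the threshold (log2 -0.58 ± 0.20 (SE), adjusted p = 0.0513). Samd9l had 7674, 8524 and 7159 in the KO stem libraries, against 4705, 8135 and 8247 in the WT stem libraries, where WT stem library 1 was again the lowest. Its stem effect was log2 0.19, and -0.08 without that library.

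**Figure D4:**
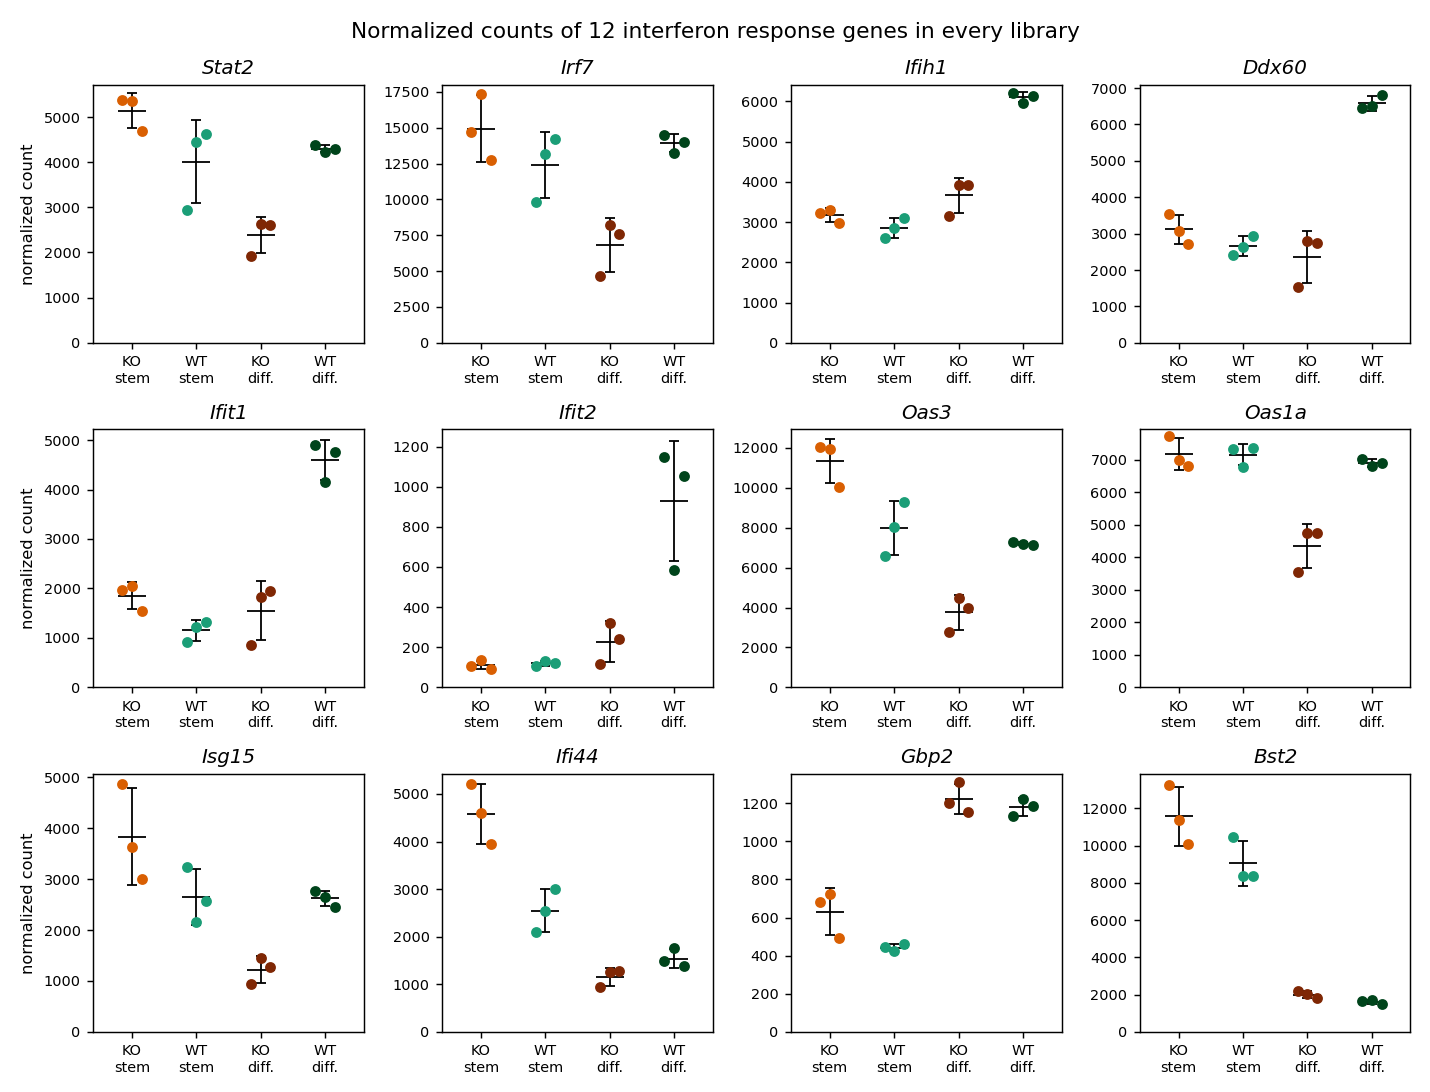
Normalized counts of 12 interferon response genes in every library (points); horizontal lines are group means and whiskers 1 SD over 3 libraries, for KO stem, WT stem, KO differentiated and WT differentiated organoids. For Ifih1, Ddx60, Ifit1 and Ifit2 the WT differentiated libraries are the highest, for Stat2, Irf7, Oas1a, Oas3 and Isg15 the KO differentiated libraries are the lowest, and Bst2 is high in both stem groups.

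All 4 oligoadenylate synthetases, which make the signal that activates RNase L against RNA, fell in KO differentiated organoids, where 13.9% of all genes fell. Oas1a had 3564, 4745 and 4748 in the KO differentiated libraries, against 7034, 6802 and 6905 in the WT differentiated libraries (log2 -0.68 ± 0.10 (SE), adjusted p = 0.00132). Its stem values were 7732, 6992 and 6812 in the KO stem libraries, against 7324, 6786 and 7376 in the WT stem libraries, with the smallest stem KO effect of the 42 genes (log2 0.00 ± 0.10 (SE), adjusted p = 0.993). Oas1a was thus alike in 3 groups and low in the KO differentiated libraries. Oas3 had 2795, 4484 and 3994 in the KO differentiated libraries, against 7308, 7185 and 7132 in the WT differentiated libraries (log2 -0.97 ± 0.16 (SE), adjusted p = 0.00238). In the stem cell condition the order was the reverse, with 12026, 11931 and 10064 in the KO stem libraries, against 6592, 8049 and 9294 in the WT stem libraries, and the difference was not called (log2 0.52 ± 0.16 (SE), adjusted p = 0.0803). Oas3 levels in KO were at most 4484 in differentiated and at least 10064 in stem libraries.

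Oasl2 had 5167, 7623 and 6691 in the KO differentiated libraries, against 11957, 11793 and 11686 in the WT differentiated libraries (log2 -0.88 ± 0.13 (SE), adjusted p = 0.00125), with KO stem values of 12152, 11858 and 9671 against WT stem values of 8644, 9259 and 9825. Oas2 had 1201, 1679 and 1448 in the KO differentiated libraries, against 2304, 2326 and 2430.4 in the WT differentiated libraries (log2 -0.72 ± 0.12 (SE), adjusted p = 0.00244) and 6689, 6115 and 5358 in the KO stem libraries, against 5126, 4178 and 4896 in the WT stem libraries (log2 0.35 ± 0.12 (SE), adjusted p = 0.102). Oas2 was low in both differentiated groups and lowest in KO. The interaction was called for Oas3 (log2 -1.48, adjusted p = 0.0098), Oasl2 (log2 -1.16, adjusted p = 0.0098), Oas2 (log2 -1.07, adjusted p = 0.0107) and Oas1a (log2 -0.68, adjusted p = 0.0192). Oas1a has close paralogs, such as Oas1g, so reads may have been shared among them, which was not examined.

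Of 7 genes of the ISG15 and ubiquitin pathway, 6 fell in KO differentiated organoids, where 13.9% of all genes fell. Isg15, the ubiquitin-like modifier itself, had 936, 1458 and 1278 in the KO differentiated libraries, against 2765, 2642 and 2458 in the WT differentiated libraries (log2 -1.12 ± 0.20 (SE), adjusted p = 0.00316). In the stem cell condition it had 4871, 3631 and 3002 in the KO stem libraries, against 3243, 2152 and 2575 in the WT stem libraries, which overlapped (log2 0.52 ± 0.20 (SE), adjusted p = 0.142). Its interaction was log2 -1.64 (adjusted p = 0.0122). Usp18, which removes ISG15 and restrains the type I receptor, was not called in either condition, with 1065 ± 189 in KO differentiated and 1191 ± 74.4 in WT differentiated libraries (SD, n = 3 each; log2 -0.17, adjusted p = 0.455). Herc6, the main ligase for ISG15 in mice, averaged 231 ± 94.3 in KO differentiated and 526 ± 91.7 in WT differentiated libraries (SD, n = 3 each; log2 -1.26 ± 0.27 (SE), adjusted p = 0.00665), with an interaction of log2 -1.70 (adjusted p = 0.0235).

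Parp9 and Dtx3l, whose proteins form one ubiquitin ligase complex, lie head to head on opposite strands and share 458 exonic bases, so their reads are not fully separable. Exons of Irf7 (45 bases, with Phrf1), Irf9 (123 bases, with Rnf31), Gbp7 (637 bases, with Gm43802) and Herc6 (1269 bases, with Gm45193) overlap other genes too. Parp9 had 7832, 8286 and 7879 in the KO differentiated libraries, against 10115, 10042 and 10176 in the WT differentiated libraries (log2 -0.34 ± 0.050 (SE), adjusted p = 0.00138). It had 6573, 6201 and 5878 in the KO stem libraries, against 5688, 5822 and 5834 in the WT stem libraries, and its interaction was log2 -0.44 (adjusted p = 0.0107). Dtx3l had 8487, 8701 and 8138 in the KO differentiated libraries, against 9881, 10151 and 9722 in the WT differentiated libraries (log2 -0.23 ± 0.076 (SE), adjusted p = 0.0424), a call that was lost when any one of the 6 libraries was left out. Parp14, which adds single ADP-ribose units to proteins, had 9607, 10897 and 9846 in the KO differentiated libraries, against 14038, 14482 and 14128 in the WT differentiated libraries (log2 -0.49 ± 0.093 (SE), adjusted p = 0.00392). It averaged 6882 ± 749 in KO stem and 6107 ± 692 in WT stem libraries (SD, n = 3 each), and its interaction was log2 -0.67 (adjusted p = 0.0167). Rnf213, a very large ubiquitin ligase, averaged 13973 ± 1404 in KO differentiated and 22663 ± 1328 in WT differentiated libraries (SD, n = 3 each; log2 -0.70 ± 0.21 (SE), adjusted p = 0.0327), a call lost without any library but KO differentiated library 2. All 6 called genes were below their WT counterparts in every differentiated library.

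The other antiviral effectors were a mixed group. In KO stem organoids 3 of 10 (30%) were higher, where 3.48% of all genes were. In KO differentiated organoids 2 of 10 (20%) were lower, where 13.9% of all genes were. Ifi44, an interferon-induced protein that limits virus replication, had 5201, 4592 and 3943 in the KO stem libraries, against 2092, 2544 and 2995 in the WT stem libraries, the smallest adjusted p of the stem comparison (log2 0.85 ± 0.16 (SE), adjusted p = 0.0108). In differentiated organoids it had 936, 1262 and 1269 in the KO differentiated libraries, against 1479, 1759 and 1376 in the WT differentiated libraries, in the opposite order and not called (log2 -0.42 ± 0.16 (SE), adjusted p = 0.0741). Its interaction was log2 -1.27 (adjusted p = 0.0133). Without KO stem library 1 the stem call of Ifi44 was lost (adjusted p = 0.0569). Rsad2 (viperin), an enzyme that makes a chain-terminating nucleotide, had 1016, 925 and 650.4 in the KO stem libraries, against 507, 476 and 569 in the WT stem libraries (log2 0.72 ± 0.16 (SE), adjusted p = 0.0262). Its differentiated levels were 309, 415 and 354 in the KO differentiated libraries, against 392, 379 and 443 in the WT differentiated libraries, which overlapped, and the interaction was log2 -0.89 (adjusted p = 0.0388).

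Mx2, a dynamin-like GTPase, was the lowest-expressed of the 42 genes per kilobase. It had 90, 74.9 and 55 in the KO stem libraries, against 24.5, 31 and 43.9 in the WT stem libraries (log2 1.13 ± 0.27 (SE), adjusted p = 0.0333) and 26.7, 39.6 and 39.5 in the KO differentiated libraries, against 45, 44.2 and 34.1 in the WT differentiated libraries (log2 -0.23 ± 0.27 (SE), adjusted p = 0.569). Without WT stem library 1 its stem call was lost (adjusted p = 0.0615). Cmpk2, a nucleotide kinase of mitochondria, was not called in either condition (log2 -0.32 in differentiated and 0.17 in stem organoids). Rsad2 and Cmpk2 are neighbours on chromosome 12, 9.04 and 9.02 megabases from Ahr. Sp100, a protein of nuclear bodies, had 92.2, 124 and 135 in the KO differentiated libraries, against 183, 178 and 225 in the WT differentiated libraries (log2 -0.74 ± 0.23 (SE), adjusted p = 0.036) and 509, 595 and 414 in the KO stem libraries, against 235, 287 and 443 in the WT stem libraries (log2 0.69 ± 0.23 (SE), adjusted p = 0.101). Its interaction was log2 -1.43 (adjusted p = 0.0268). Xaf1, an inhibitor of a cell survival protein, fell in KO differentiated organoids by a small margin (log2 -0.32 ± 0.11 (SE), adjusted p = 0.0493). The Sp100 call in differentiated organoids held only without KO differentiated library 3, and that of Xaf1 only without KO differentiated library 2, among the 6 ways to leave out a library.

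Bst2, Ifi27, Ifitm3 and Ifi35 were likewise not called in either condition, nor was their interaction. Bst2 (tetherin), which holds budding virus at the cell surface, had 2192, 2008 and 1799 in the KO differentiated libraries, against 1662, 1682 and 1490 in the WT differentiated libraries (log2 0.31 ± 0.12 (SE), adjusted p = 0.0721) and 13261, 11371 and 10064 in the KO stem libraries, against 10452, 8355 and 8354 in the WT stem libraries (log2 0.35 ± 0.12 (SE), adjusted p = 0.097), and both differences had the same sign. Its interaction was log2 -0.04 ± 0.17 (SE, adjusted p = 0.893). Its promoter is among those printed above. Ifi27, a small membrane protein, had 4964, 5100 and 5266 in the KO differentiated libraries, against 4721, 4966 and 5092 in the WT differentiated libraries and 8776, 8743 and 8100.5 in the KO stem libraries, against 5140.5, 7240.4 and 8232 in the WT stem libraries. Ifitm3, which blocks fusion of viruses with the endosome, had 41.1, 32.1 and 13.6 in the KO differentiated libraries, against 35.1, 14.3 and 22.7 in the WT differentiated libraries and 556, 469 and 192 in the KO stem libraries, against 514, 537 and 464 in the WT stem libraries, and KO stem library 3 was the low one among the stem libraries. Ifi35, a partner of NMI, averaged 1975 ± 93.1 in KO differentiated and 2342 ± 43.3 in WT differentiated libraries (SD, n = 3 each; log2 -0.25, adjusted p = 0.129).

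Interferon-inducible GTPases, which attack the vacuoles of intracellular microbes, held 4 of the 7 stem calls. Of these 6 genes, 4 were higher in KO stem organoids, where 3.48% of all genes were. In KO differentiated organoids 3 of the 6 were lower, where 13.9% of all genes were. Gbp2 had 679.8, 721 and 492 in the KO stem libraries, against 445, 422 and 460.5 in the WT stem libraries (log2 0.49 ± 0.12 (SE), adjusted p = 0.0397). In differentiated organoids it had 1199, 1309.8 and 1156 in the KO differentiated libraries, against 1132, 1224 and 1183 in the WT differentiated libraries, which overlapped (log2 0.05 ± 0.12 (SE), adjusted p = 0.8). Gbp3 had 1811, 1610.1 and 1341 in the KO stem libraries, against 1161, 1092 and 1248 in the WT stem libraries (log2 0.43 ± 0.10 (SE), adjusted p = 0.0326) and 1095, 1083 and 992 in the KO differentiated libraries, against 906, 994 and 881 in the WT differentiated libraries (log2 0.19 ± 0.10 (SE), adjusted p = 0.198). For neither gene was the interaction called (log2 -0.44 and -0.25, adjusted p = 0.132 and 0.309). Guanylate-binding protein genes lie in clusters of similar copies, so reads may have been shared among them.

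Gbp7 had 704, 717 and 588 in the KO stem libraries, against 466, 479.8 and 473 in the WT stem libraries (log2 0.49 ± 0.11 (SE), adjusted p = 0.0217). It had 375, 427 and 488 in the KO differentiated libraries, against 548, 536 and 513 in the WT differentiated libraries (log2 -0.32 ± 0.11 (SE), adjusted p = 0.0492). Irgm2 had 1329, 1015 and 988 in the KO stem libraries, against 880.4, 728 and 769.8 in the WT stem libraries (log2 0.48 ± 0.12 (SE), adjusted p = 0.0375). It had 1028, 1224 and 1124 in the KO differentiated libraries, against 1359.5, 1434 and 1515 in the WT differentiated libraries (log2 -0.35 ± 0.12 (SE), adjusted p = 0.0464). In both genes the KO libraries were thus all higher in the stem cell condition and all lower in the differentiated one, with interactions of log2 -0.81 (adjusted p = 0.0151) and -0.83 (adjusted p = 0.0184). Their differentiated calls were close to the threshold and held only without KO differentiated library 3 (Gbp7) or 2 (Irgm2), among the 6 ways to leave out a library. Igtp (Irgm3) averaged 614 ± 91.6 in KO differentiated and 941 ± 1.33 in WT differentiated libraries (SD, n = 3 each; log2 -0.62 ± 0.14 (SE), adjusted p = 0.00913) and 767 ± 94.5 in KO stem and 629 ± 101 in WT stem libraries (log2 0.29, adjusted p = 0.229), with an interaction of log2 -0.92 (adjusted p = 0.0223). Igtp and Irgm2 share 162 exonic bases on the same strand, besides the near-identical promoter stretches printed above. Irgm1, a regulator of the other GTPases, was not called in either condition (log2 0.10, adjusted p = 0.642 in differentiated and log2 0.19, adjusted p = 0.427 in stem organoids), nor was its interaction (log2 -0.09, adjusted p = 0.793).

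The same interaction can be read as a difference in the change on differentiation. In KO organoids 28 of the 42 genes fell on withdrawal of Wnt-3A and 7 rose, where 33.6% of all genes fell and 34.1% rose. In WT organoids 9 fell and 17 rose, where 35.9% fell and 36.3% rose. The median change of the 42 genes was log2 -0.74 in KO and 0.17 in WT organoids, against 0.01 over all genes in both. Another view is gene by gene: 9 genes fell in both genotypes and 7 rose in both. Shares of all genes with such joint patterns are not given here, so these and the next counts only describe the 42 genes. Eif2ak2, Ifit3 and Oasl2 fell in KO and rose in WT organoids, but the fall of Ifit3 was not called without KO differentiated library 1. The call for the rise of Oasl2 held only without WT stem library 3, among the 6 ways to leave out a library. A further 16, with Stat2, Irf7, Isg15, Oas1a, Oas3 and Rsad2 among them, fell in KO and were not called in WT, and 7 (Ddx60, Ifih1, Ifit1, Igtp, Irgm1, Irgm2 and Trim25) rose in WT and were not called in KO. Irgm1 joined those that rose in KO when replicate numbers, which pair the KO cultures, were a block within genotype (adjusted p = 0.0309).

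**Figure D5:**
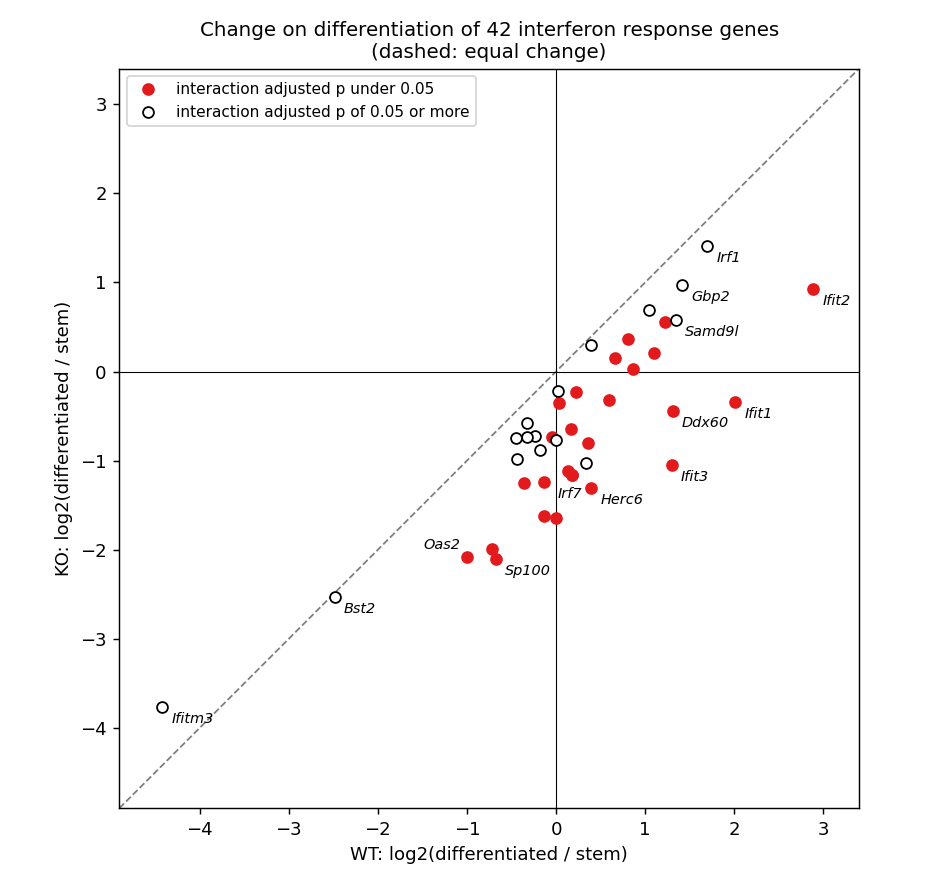
Change on differentiation, as log2(differentiated / stem), of the 42 interferon response genes in KO (vertical axis) against WT organoids (horizontal axis), with the line of equal change dashed. Filled points are the 26 genes whose interaction had an adjusted p under 0.05; all of them lie below the line, and only Ifitm3 lies above it.

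The largest falls, those of Ifitm3 and Bst2, were shared by the genotypes. Ifitm3 changed on differentiation by log2 -3.76 in KO (adjusted p = 2.26e-05) and -4.42 in WT organoids (adjusted p = 4.48e-06). Bst2 changed by log2 -2.53 in KO (adjusted p = 1.29e-08) and -2.48 in WT organoids (adjusted p = 7.49e-09). Oas2 fell by log2 values of -2.08 in KO and -1.003 in WT. For Sp100 these were -2.11 in KO and -0.67 in WT, the second of which was lost without WT stem library 3 or WT differentiated library 1 or 2. For Ifi44 they were -1.99 in KO and -0.72 in WT, and for Oas2, Sp100 and Ifi44 the difference between the genotypes was the called interaction given above. Ifi27 was the next in WT organoids (log2 -0.45, adjusted p = 0.00844). Isg15 was the next in KO organoids (log2 -1.64, adjusted p = 2.18e-05), while in WT organoids its change was smaller than its standard error of 0.20 on the log2 scale.

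Some of the rises on differentiation differed between the genotypes and others were not shown to differ. Ifit2 rose by log2 0.93 in KO (adjusted p = 0.0308) and 2.89 in WT organoids (adjusted p = 1.29e-05), though its KO call was lost when KO differentiated library 2 or 3, or KO stem library 1 or 3, was left out, as was that of Samd9l. Ifit1 rose by log2 2.01 in WT (adjusted p = 3.06e-05), against -0.34 in KO organoids, not called (adjusted p = 0.276). Irf1 rose in both, by log2 1.41 in KO (adjusted p = 1.76e-08) and 1.70 in WT organoids (adjusted p = 2.52e-09). Gbp2 rose by log2 0.97 in KO and 1.41 in WT, Samd9l by 0.58 and 1.34, Dtx3l by 0.69 and 1.04, and Parp14 by 0.56 and 1.23 in the same order. The difference between the genotypes was called for Ifit1, Ifit2, Ddx60 and Parp14, and not for Irf1 (adjusted p = 0.0843), Gbp2 (adjusted p = 0.132), Samd9l (adjusted p = 0.108) or Dtx3l (adjusted p = 0.0676). Ddx60 changed by log2 1.31 in WT (adjusted p = 7.15e-05), against -0.44 in KO organoids (adjusted p = 0.0599).

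Levels per kilobase of exon placed the genes in a similar order in both stem groups. Bst2 was first in both, at 12808 normalized counts per kilobase in KO stem and 10026 in WT stem, followed by Ifi27 at 5821 and 4684. In WT differentiated organoids Irf7 (3689), Oas1a (3668), Isg15 (3468) and Ifi27 (3358) were the first 4 per kilobase. Among KO differentiated organoids Ifi27 (3483), Oas1a (2309), Trim25 (2246) and Bst2 (2214) came first, while Irf7 (1812) was seventh and Isg15 (1619) ninth. Neighbours in these orders often lay within the spread of the libraries. Mx2 was last in all 4 groups, at 20.3, 9.16, 9.76 and 11.4 per kilobase in KO stem, WT stem, KO differentiated and WT differentiated organoids.

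The ligands themselves were not seen. Of 10 interferon genes (type I, II and III), 5 were at 0 in all 12 libraries and none had more than 3 reads in any library, so interferon transcripts were not detectable at this depth and no difference between groups could be measured. Receptors and signalling proteins were all expressed. Of 18, 6 fell and none rose in KO differentiated organoids (median log2 -0.14), where 13.9% of all genes fell and 13.8% rose. In KO stem organoids 2 of the 18 rose and none fell (median log2 0.01), where 3.48% of all genes rose and 3.09% fell. Il10rb, a subunit of the type III interferon receptor, had 5049, 5478 and 5175 in the KO differentiated libraries, against 7054, 6472 and 6832 in the WT differentiated libraries (log2 -0.38 ± 0.056 (SE), adjusted p = 0.0014), and its interaction was log2 -0.56 (adjusted p = 0.00975). The kinases Jak2 (log2 -0.38, adjusted p = 0.00401) and Jak1 (log2 -0.19, adjusted p = 0.0162), with Irf2 (log2 -0.39, adjusted p = 0.0109), Irf8 (log2 -1.002, adjusted p = 0.03) and Stat3 (log2 -0.23, adjusted p = 0.0188) fell as well, though the calls of Irf8, Stat3 and Jak1 were lost without WT differentiated library 1, and those of Irf8 and Stat3 also without others. In KO stem organoids Socs3, a feedback inhibitor of cytokine receptors (log2 0.78, adjusted p = 0.0235), and Ifnlr1, the other subunit of the type III receptor (log2 0.41, adjusted p = 0.0301), rose, and both calls were among those lost without KO stem library 2.

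Of 19 genes that sense nucleic acid ahead of interferon, 17 were tested. In KO differentiated organoids 3 of the 17 rose and 2 fell, where 13.8% of all genes rose and 13.9% fell. In KO stem organoids 2 of the 17 rose and none fell, where 3.48% of all genes rose and 3.09% fell. Tmem173 (STING), the adaptor for cytosolic DNA, rose in KO in both conditions. It had 3889, 3897 and 3482 in the KO differentiated libraries, against 858, 1451 and 934 in the WT differentiated libraries (log2 1.83 ± 0.19 (SE), adjusted p = 2.20e-04) and 4947, 4921 and 5340 in the KO stem libraries, against 1474, 2349 and 1790 in the WT stem libraries (log2 1.46 ± 0.19 (SE), adjusted p = 0.00141). In both comparisons every KO library lay above every WT library, and the interaction was not called (log2 0.37, adjusted p = 0.405). Irf5 (log2 0.85, adjusted p = 0.00189) and Rnaseh2a, a subunit of RNase H2 (log2 0.32, adjusted p = 0.0269), also rose in KO differentiated organoids, while Adar, which edits double-stranded RNA (log2 -0.33, adjusted p = 0.00304), and the kinase Tbk1 (log2 -0.27, adjusted p = 0.00463) fell. Tlr3, a receptor for double-stranded RNA, rose in KO stem organoids (log2 0.36, adjusted p = 0.0232), and its interaction was log2 -0.54 (adjusted p = 0.0194), which was lost without WT differentiated library 3. The Tlr3 call in stem organoids was lost without KO stem library 1 or 2 or WT stem library 3, and the Rnaseh2a call without KO differentiated library 1 or 2 or WT differentiated library 1 or 3.

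A further 68 interferon-stimulated genes, listed apart from the 42, were examined in the same fit, and 62 were tested. In KO differentiated organoids 22 fell and 6 rose (median log2 -0.21), where 13.9% of all genes fell and 13.8% rose. In KO stem organoids 11 rose and none fell (median log2 0.33), where 3.48% of all genes rose and 3.09% fell. The interaction was called for 20, all negative (median log2 -0.49), where 3.58% of all genes were called negative. Ifit1bl1, a close relative of Ifit1, had 2196, 4311 and 4992 in the KO differentiated libraries, against 9246, 8225 and 9333 in the WT differentiated libraries (log2 -1.30 ± 0.26 (SE), adjusted p = 0.00509) and 596, 439.6 and 392 in the KO stem libraries, against 197, 253 and 252 in the WT stem libraries (log2 1.01 ± 0.26 (SE), adjusted p = 0.042). Phf11b (log2 -1.77, adjusted p = 0.00673) and Oasl1 (log2 -1.09, adjusted p = 0.0158) fell too in KO differentiated organoids, the call of Oasl1 being lost without KO differentiated library 1 or WT differentiated library 1 or 3. Tgtp1, an immunity-related GTPase, went the other way, with 257, 118 and 66.8 in the KO differentiated libraries, against 21.4, 35.8 and 18.2 in the WT differentiated libraries (log2 2.35 ± 0.51 (SE), adjusted p = 0.00767). Ifitm2 had 1687, 1520.4 and 1519.6 in the KO differentiated libraries, against 789, 759.6 and 740.5 in the WT differentiated libraries (log2 1.04 ± 0.10 (SE), adjusted p = 1.64e-04). Ccl5, a chemokine, had 108, 97.3 and 75.7 in the KO differentiated libraries, against 29, 33.4 and 20.4 in the WT differentiated libraries (log2 1.74 ± 0.26 (SE), adjusted p = 0.00132). These 3 were above WT in every KO differentiated library. In KO stem organoids Ifi204 (log2 1.24, adjusted p = 0.0213), Ifit3b (log2 1.13, adjusted p = 0.0474), Slfn2 (log2 0.85, adjusted p = 0.00364), Trim30a (log2 0.84, adjusted p = 0.037) and Apol9b (log2 0.75, adjusted p = 0.0401) rose, and of these 5 and Ifit1bl1 only Slfn2 kept its call whichever library was left out.

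Some genes outside these lists followed the mean of the 42 genes over the 12 libraries. As a description, with libraries that share depth and culture condition, the highest Pearson correlations with that mean were those of Fth1 (0.97), Tmprss2 (0.96), Rp2 (0.94), Heph (0.93), H2-T22 (0.92), C2cd2l (0.92), H2-D1 (0.91), Cav1 (0.90), Chn2 (0.90) and Prkaca (0.90). H2-T22 and H2-D1 are class I histocompatibility genes, while Fth1 and Heph belong to iron handling.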

How the data were processed

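Total RNA of colonic organoids was sequenced in 12 libraries, and the authors deposited 1 table with a normalized count (a signal value) per Ensembl gene and library. Per the labels' processing notes the tools were Bowtie2, RSEM 1.2.11 and DESeq2 1.18.1 with the GRCm38 genome; the annotation, any filter and the use of strand in counting are not given in the sources used here. Values were whole multiples of 1 step per library for 100% of entries (tolerance 0.05 of a read), so reads were recovered by division by that step. Depth is the total of those reads, and a sum of 0 to 3 reads was read as not detected, for counting error only. Replicates of a group differed by more than counting noise.

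Symbols and exon lengths came from GENCODE vM21. The filter kept 14856 genes whose value reached 10 in 3 or more libraries. On log2(value + 1), 4 group means were estimated from all 12 libraries by limma 3.58.1 (mean-variance trend; R 4.3.3), with 5 contrasts, two-sided tests and Benjamini-Hochberg adjustment over all tested genes. "Called" means an adjusted p under 0.05. The log2 scale with a pseudocount of 1 understates changes of low genes. The script was tested on simulated data.

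The genes, lists and rules were chosen with earlier results of these data known. By rule, every one of the 42 genes is named. Values of each library go to genes called in KO against WT or in the interaction (at most 12 per comparison by smallest adjusted p) and to the 6 largest rises and falls on differentiation; from the other lists, genes are named that were called and averaged 50 or more (up to 6 for each list and comparison). Alternatives were count tests on the recovered reads (edgeR 4.0.16, quasi-likelihood; DESeq2 1.42.0), pseudocounts of 0.5 and 5, no filter or a mean of 50 as filter, other scalings (recomputed size factors, quantiles), robust variance moderation, fits of the compared groups alone, replicate blocks, and leaving out libraries.

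Replicate numbers in the labels were checked for pairing. Deviations of same-numbered KO stem and KO differentiated libraries correlated at 0.40, 0.30 and 0.39, so these were taken as paired in the block within genotype. The main fit held no term for this pairing, so its p-values for the interaction and for differentiation in KO organoids ignore it. Under the alternatives other than leaving out 1 library, that block among them, 23 to 31 genes were called for the interaction. For differentiation in KO organoids 34 to 37 were. The other pairs of groups did not all exceed 0.1. Some items of the lists are not reported here.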

Additional observations from a re-analysis of the deposited data

Results flagged for a closer look

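The KO effect differed between the culture conditions, by the interaction test, for 26 of the 42 interferon response genes. Each value here is the KO effect in differentiated organoids minus that in stem organoids, on the log2 scale. Among transcription factors it was -1.25 for Stat2, -1.34 for Irf7 and -0.38 for Irf9. The sensors gave -1.75 for Ddx60, -1.34 for Zbp1, -1.11 for Dhx58, -0.90 for Ifih1 and -0.51 for Trim25. Translation inhibitors gave -2.35 for Ifit1, -2.34 for Ifit3, -1.96 for Ifit2 and -0.45 for Eif2ak2. Oligoadenylate synthetases gave -1.48 for Oas3, -1.16 for Oasl2, -1.07 for Oas2 and -0.68 for Oas1a. For the ISG15 and ubiquitin pathway the values were -1.70 for Herc6, -1.64 for Isg15, -0.67 for Parp14 and -0.44 for Parp9. The remaining genes were Sp100 (-1.43), Ifi44 (-1.27), Rsad2 (-0.89), Igtp (-0.92), Irgm2 (-0.83) and Gbp7 (-0.81).

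Among the other pathway genes named, the KO effect also differed for Il10rb (-0.56), Stat3 (-0.37), Tlr3 (-0.54), Adar (-0.42), Mavs (-0.29), Ifit1bl1 (-2.31), Phf11b (-2.07), Ifit3b (-2.06), Ifit1bl2 (-1.82), Trim30a (-1.71), Apol9a (-1.49) and Apol9b (-1.30). Rnaseh2a was the one of these genes with a called positive difference (0.61). Of these calls, those of Il10rb, Adar, Ifit1bl1, Trim30a and Apol9a held whichever library was left out. That of Tlr3 was lost without WT differentiated library 3, that of Apol9b without it or KO stem library 2, and those of Ifit3b and Rnaseh2a without that library or KO stem library 1 or 2. Without WT differentiated library 3 or KO stem library 1 or 2 the calls of Mavs, Phf11b, Stat3 and Ifit1bl2 were lost as well, and also without several other libraries. Groups of 3 libraries are too small for a test of single outlying libraries.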

How the results depend on the processing

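The differentiated count stayed at 21 to 24 of 42 when 1 library was left out and at 22 to 30 under every other alternative. The interaction count was 16 to 28 with 1 library left out, with 16 reached without WT differentiated library 3, and 23 to 31 otherwise. The stem count was the fragile one: it was 0 to 8 with 1 library left out, 4 with no filter, 13 with DESeq2, 0 with only the stem libraries in the fit, and 14 without WT stem library 1 and KO stem library 3 together; the cause was not tested. On differentiation 34 to 36 genes were called in KO and 23 to 24 in WT organoids with 1 library left out. With the replicate number as a block, 10 genes were called in stem, 29 in differentiated organoids and 30 for the interaction, 36 on differentiation in KO and 26 in WT organoids; same-numbered KO and WT libraries did not deviate together in every pair (correlations of 0.23, 0.25 and -0.00076 in stem and 0.017, -0.077 and 0.19 in differentiated organoids), nor did WT stem and WT differentiated ones (0.17, 0.094 and 0.23). A block within genotype could not be fitted for KO against WT, leaving out both stem libraries does not apply to the differentiated comparison, and the interaction always uses all groups. Shares of all genes called are not given for these alternatives, so a count above the main one need not be particular to the 42 genes. Of the single values for the 42 genes, none that was called reversed. Other scalings moved the median of all genes by less than 0.1 on the log2 scale. Depth limits what can be said of the interferon ligands, which had no more than 3 reads in any library.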
